A study of Arabidopsis thaliana with 3 samples.

Results

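A set of 48 genes of Arabidopsis thaliana was listed with a high signal of uncapped 5′ ends and almost no polyA RNA-seq signal in the same tissue. The values are gene totals, so the number of separate ends in a gene is not known. The 48 were chosen by their values: below 1 RPKM in both RNA-seq libraries and at least 30 RPKM in the GMUCT library, with an identifier missing from a table taken as 0. RPKM scales the reads of a gene to its length and to the depth of the library. The 3 tables together listed 26810 identifiers, including 65 that the rule leaves out, so the rule took 0.179% of them. One further gene met the thresholds and was left out by the rule, together with a block of identifiers on chromosome 2. Because both assays chose the members, the contrast between them is a description and carries no test.

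The samples were immature inflorescences taken at about 4 weeks under a day of 16 h light and 8 h dark. All 3 libraries came from dcl1-7, a mutant in DCL1, which encodes the Dicer that makes microRNAs. The reads were 50 nt and strand-specific, from polyA RNA, with 2 libraries of RNA-seq and 1 of GMUCT. No other genotype was analysed here, so nothing below separates dcl1-7 from other plants. Every GMUCT value is a single measurement without a replicate error. The labels do not say whether separate plants went into each RNA-seq library, so the spread between them may be technical.

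Most messenger RNAs carry a cap at the 5′ end, and decay often begins when the cap is removed or the RNA is cut inside. The exposed end is then open to exonucleases such as XRN4, which degrade RNA from 5′ to 3′. GMUCT (global mapping of uncapped transcripts) ligates an adapter to such ends on polyA RNA, so a read marks the end of a decapped or cut molecule. RNA-seq of the same RNA reads fragments along the whole molecule.

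The tissue label was checked first. All 6 listed inflorescence and flower genes (among them AP1, LFY and AG) reached 1 RPKM in both RNA-seq libraries, although LFY was at the threshold, with 1.00 and 1.63 RPKM. All 4 genes of mature pollen (36.49 to 259.51 RPKM) and 1 of 3 root hair genes (COBL9, 1.74 and 1.15 RPKM) also reached 1 RPKM in both. Of the genes of maturing seed, 0 of 7 did. What cells other than those of immature buds add to the levels was not tested. All 15 enzymes and factors of decay of uncapped RNA on a fixed list reached 1 RPKM in both RNA-seq libraries, between 4.98 and 43.89 RPKM, and 0 of the 15 were members. The tables listed 23809, 22824 and 26731 identifiers (RNA-seq 1, RNA-seq 2 and GMUCT in this order). The spacing of low values gave approximate depths of 18500000, 8610000 and 19400000 reads. GMUCT of at least 30 RPKM was common over the whole table (11.7% of identifiers), but among the 7802 identifiers below 1 RPKM in both RNA-seq libraries, those left out by the rule not counted, it was reached by the 48 members, or 0.615%.

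**Figure D1:**
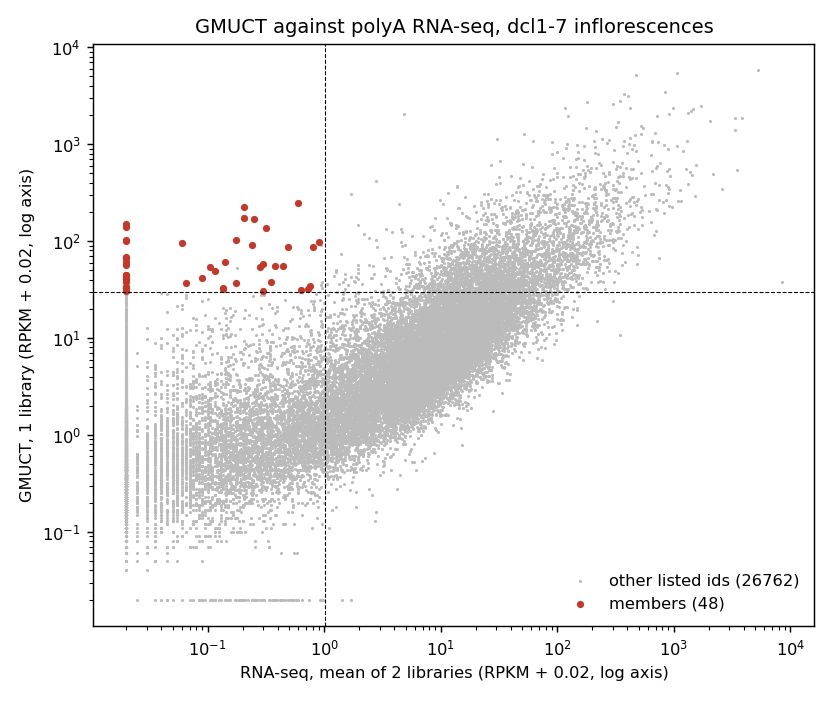
Each point is 1 identifier, with the mean of the 2 RNA-seq libraries on the x axis and the GMUCT library on the y axis, both in RPKM plus 0.02 on log axes. The 48 members (red) lie in the upper left corner that the thresholds of 1 and 30 RPKM (dashed lines) cut out. Grey points in that corner are the gene that the rule left out and genes that reached 1 RPKM in just 1 RNA-seq library. AT4G13690 (1.00 and 0.87 RPKM) and AT2G40710 (1.03 and 0.82 RPKM) are of the second kind.

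The members' GMUCT values ran from 30.45 to 248.92 RPKM, with a median of 54.1 RPKM. A total of 9 members had 100 RPKM or more and 15 lay between 30 and 40 RPKM. The 4 highest held 23.6% of the members' GMUCT sum of 3466 RPKM, which was 0.632% of the whole GMUCT table. In RNA-seq the highest value of any member was 0.95 RPKM. A total of 20 members were missing from both RNA-seq tables, 7 were listed in RNA-seq 1 alone, 1 in RNA-seq 2 alone, and 20 in both. Missing from both tables was a common state among low genes in general, at 33.5% of the 7754 identifiers with low RNA-seq and GMUCT under 30 RPKM, against 41.7% of the members. At the approximate depths, 30 of the 42 members with a known length had fewer than 3 reads in RNA-seq 1 and 34 had fewer than 3 in RNA-seq 2. GMUCT gave the same genes between 86.8 and 8288 reads, with a median of 790.

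**Figure D2:**
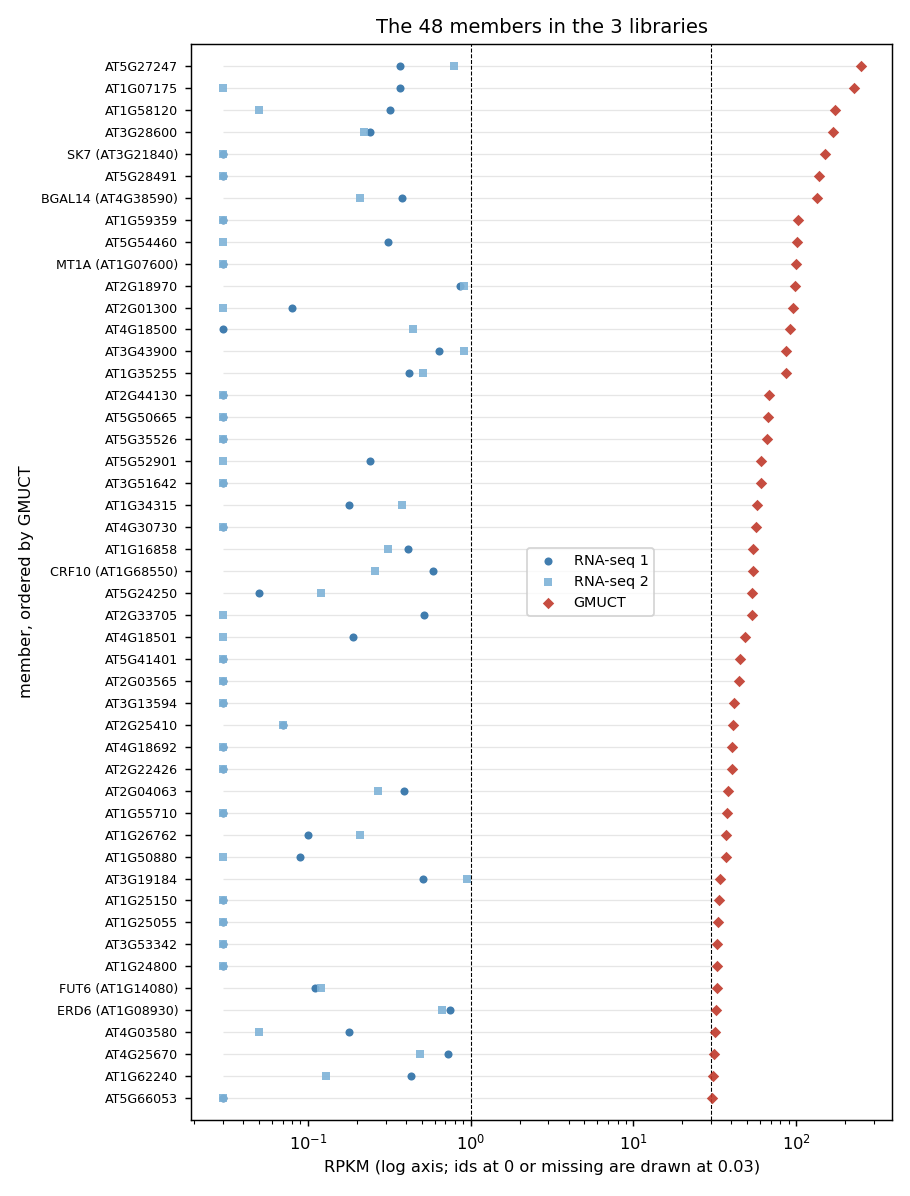
The 48 members are ordered by GMUCT (red diamonds), with RNA-seq 1 (dark blue circles) and RNA-seq 2 (light blue squares) in RPKM on a log axis, and an identifier at 0 or missing is drawn at 0.03. GMUCT falls from 248.92 to 30.45 RPKM down the plot while the RNA-seq points stay at or under 0.95 RPKM.

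The thresholds cut through a gradual distribution rather than a gap. The lowest members in GMUCT were AT5G66053 at 30.45, AT1G62240 at 30.73 and AT4G25670 at 31.43 RPKM. Just below the floor stood AT4G04030, annotated as a transcription repressor, at 29.11 RPKM, AT3G25597 at 28.37 RPKM and the receptor-kinase-like gene AT5G24100 at 28.32 RPKM. A total of 38 low RNA-seq genes lay between 20 and 30 RPKM in GMUCT. Nearest below the RNA-seq ceiling were AT3G19184, a B3 transcription factor family gene with 0.51 and 0.95 RPKM, AT2G18970 with 0.86 and 0.91 RPKM, and AT3G43900 with 0.64 and 0.91 RPKM. Nearest above it were AT4G13690 (1.00 and 0.87 RPKM), AT2G40710 (1.03 and 0.82 RPKM) and AT3G26460 (1.05 and 1.04 RPKM), whose GMUCT values were 37.63, 90.94 and 36.27 RPKM. These 3 would have been members at a slightly higher ceiling.

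Short genes and genes of unknown product made up a large share of the members. The TAIR10.1 annotation held 42 of the 48, on chromosomes 1 to 5, and all 42 were protein-coding. It held 98.7% of all listed identifiers. Of the 42, 21 (50.0%) were named uncharacterized, against 9.08% of all annotated identifiers, 15.7% of the other low RNA-seq genes and 5.65% of the annotated genes with GMUCT of at least 30 RPKM and RNA-seq of 1 RPKM or more. Identifiers whose number does not end in 0, the form used for loci added between numbered ones, made up 24 of the 48 (50.0%), against 12.4% of all identifiers, 22.7% of the other low RNA-seq genes and 6.76% of the genes with both signals.

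Introns were absent from 21 of the 42 (50.0%). The share was 20.2% over all annotated identifiers, 31.3% in the other low RNA-seq genes and 19.6% in genes with both signals. The median transcript length was 698 nt, against 1550, 1121 and 1415 nt in those 3 sets. A total of 10 members (23.8%) had a transcript under 300 nt, against 1.58%, 4.49% and 0.227%. These differences rest in part on members missing from an RNA-seq table. Among identifiers listed in all 3 tables, the 17 annotated members had a median length of 1213 nt, against 1392 nt in the other low RNA-seq genes and 1415 nt in genes with both signals. In that subset 6 of the 17 (35.3%) had no intron, against 25.5% and 19.6%, and 1 (5.88%) had a transcript under 300 nt, against 0.764% and 0.227%. Models made of coding sequence only, with no UTR annotated, were as common among the members (14 genes, 33.3%) as in the other low RNA-seq genes (28.7%), while the genes with both signals had 0.747%. RPKM divides by length, so a given number of reads weighs more on a short model, and the part of model length in these levels was not tested. The median GC content was 41.4%, against 41.3% over all annotated identifiers. A run of 10 or more A in the transcript was found in 4 members (9.52%), against 8.79% over all.

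**Figure D3:**
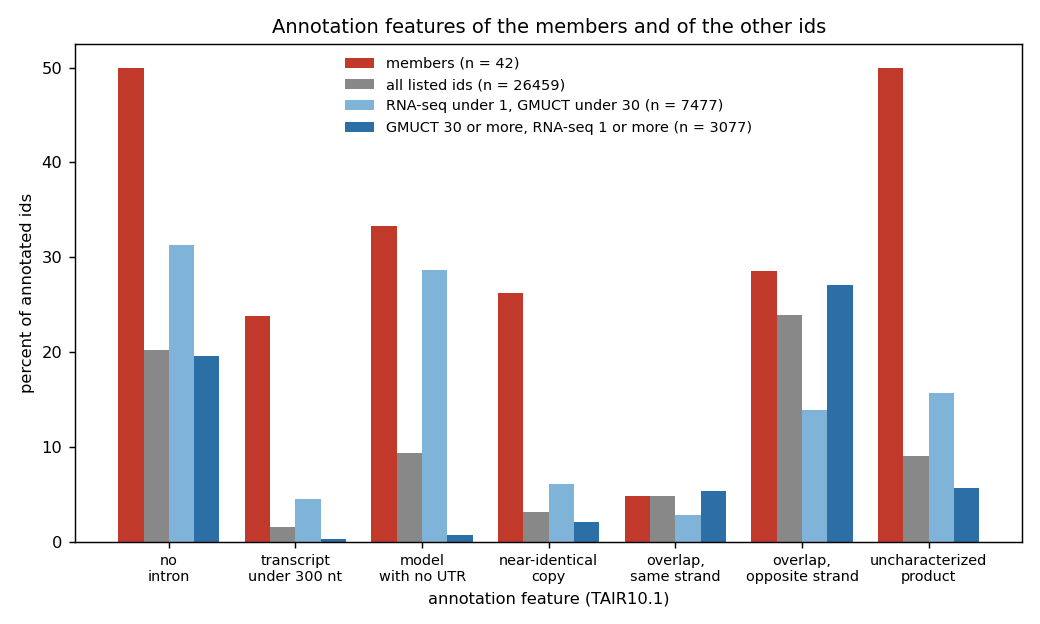
Bars give the percent of annotated identifiers with each TAIR10.1 feature in the 42 annotated members, all listed identifiers and the 2 comparison sets split by the same thresholds. The members have the tallest bar for no intron (50.0%), short transcripts (23.8%), near-identical copies (26.2%) and uncharacterized products (50.0%). Overlap on the opposite strand is close in the members (28.6%) and in genes with both signals (27.1%), and lower in the other low RNA-seq genes (13.9%).

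**Figure D4:**
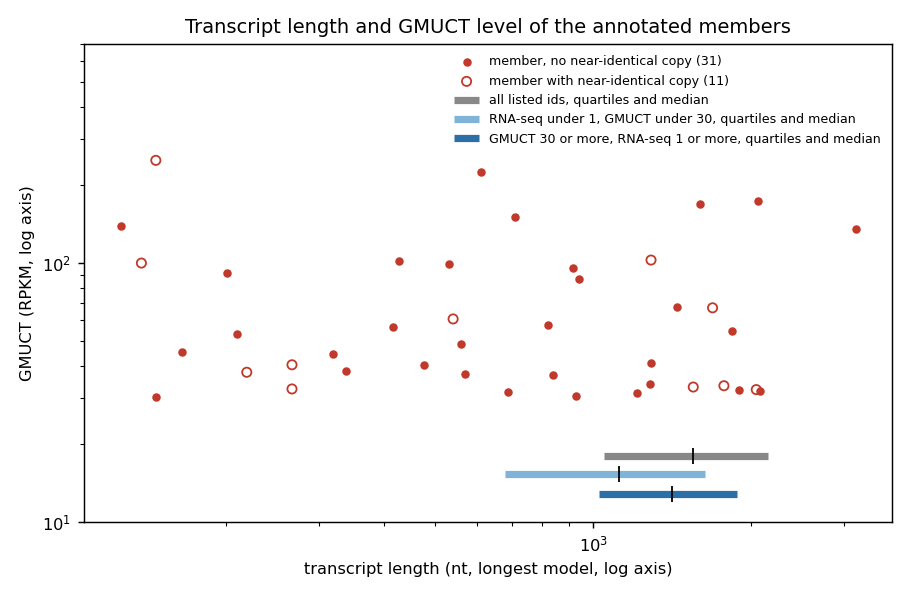
Each annotated member is placed by the length of its longest transcript model (x, nt, log axis) and its GMUCT value (y, RPKM, log axis), with open circles for members that have a near-identical copy; the bars show quartiles and the tick the median length of the other sets. The members run from 126 to 3159 nt, and genes above 100 RPKM occur at both ends of that range.

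One group of members shared its sequence with other loci. A near-identical copy, meaning at least 95% identity to another place in the genome over at least 50% of the exon length, was found for 11 of the 42 (26.2%). The share was 3.15% over all annotated identifiers, 6.03% in the other low RNA-seq genes and 2.11% in genes with both signals. Of these 11 members, 10 were missing from both RNA-seq tables, against 8 of the 31 annotated members without a copy. Among the other annotated low RNA-seq genes the 2 figures were closer, at 40.6% of the 451 with a copy and 31.2% of those without. Among identifiers listed in all 3 tables, 1 of 17 annotated members had a copy (5.88%), against 4.05% of the other low RNA-seq genes. A total of 9 of the 11 had a copy inside another listed gene, and in all 9 that gene, or 1 of several, reached 1 RPKM in both RNA-seq libraries. In the other low RNA-seq genes 370 had such a listed copy and it reached 1 RPKM for 90. The 9 members are not separate cases, since some are copies of one another. AT1G24800, AT1G25055 and AT1G25150 had the same partner, AT1G24881. AT4G18692, AT3G53342 and AT1G55710 shared the partner AT3G53630. The counts of members with a copy hold the same genes. Reads of 50 nt cannot be assigned between identical stretches, and how the authors' processing treated them is not given in the sources used here, so the split of both assays among these copies is uncertain.

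The clearest case was a cluster of F-box genes on chromosome 1. F-box proteins are the part of SCF ubiquitin ligases that binds the substrate. AT1G24800, AT1G25055 and AT1G25150 were listed at 32.46, 33.21 and 33.59 RPKM in GMUCT and in neither RNA-seq table. The transcript of AT1G25055 matched the genome without a difference over 1550 aligned bases, in a stretch that overlaps AT1G24881. AT1G24881 had 32.32 RPKM in GMUCT but 111.27 and 118.17 RPKM in the RNA-seq libraries. AT1G25211, a further copy at 99.8% identity, was at 31.09 RPKM in GMUCT and at 25.24 and 24.65 RPKM in RNA-seq. The 5 genes thus lay between 31.09 and 33.59 RPKM in GMUCT, while in RNA-seq 3 of them were missing and 1 was above 100 RPKM. The remaining F-box family members were AT2G33705, AT1G50880 and the kelch-repeat gene AT2G44130, with 53.39, 36.91 and 67.88 RPKM in GMUCT. All 6 together were 14.3% of the annotated members, against 6.61% of the other low RNA-seq genes and 2.8% of all annotated identifiers, and 3 of the 6 are these identical copies.

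AT1G59359, a ribosomal protein S5 family gene, showed the same form. Proteins of this family belong to the small ribosomal subunit. It was missing from both RNA-seq tables and had 102.63 RPKM in GMUCT. Its copies AT1G58684 and AT1G58983, identical over the aligned bases, both had 100.99 RPKM in GMUCT. In RNA-seq, AT1G58684 had 16.34 and 11.38 RPKM and AT1G58983 had 398.34 and 372.12 RPKM. AT1G58380, a copy at 97.4% identity, had 66.04 RPKM in GMUCT with 115.45 and 125.69 RPKM in RNA-seq. GMUCT was thus nearly level over the 3 closest copies and RNA-seq was not. AT5G50665, of unknown product, was at 67.14 RPKM in GMUCT and missing from both RNA-seq tables. Its copy AT5G50565 was at 69.69 RPKM in GMUCT, with 10.52 and 8.73 RPKM in RNA-seq.

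A family of short reading frames made up 3 more members. AT4G18692, AT3G53342 and AT1G55710 encode uncharacterized proteins and lie on chromosomes 4, 3 and 1. They had 40.47, 32.65 and 37.87 RPKM in GMUCT and were missing from both RNA-seq tables. AT3G53630, a longer gene that contains a related stretch, had 47.05 RPKM in GMUCT and 11.67 and 10.67 RPKM in RNA-seq. The sequences are printed because the copies differ at so few bases. They are from the TAIR10.1 assembly in RefSeq, 5′ to 3′ on the coding strand, and capitals mark bases that differ from AT4G18692. The first 3 are whole coding sequences of 219 bases, and the last is the stretch of the AT3G53630 coding sequence, coding bases 396 to 579, that lines up with bases 12 to 195 of AT4G18692.
AT4G18692: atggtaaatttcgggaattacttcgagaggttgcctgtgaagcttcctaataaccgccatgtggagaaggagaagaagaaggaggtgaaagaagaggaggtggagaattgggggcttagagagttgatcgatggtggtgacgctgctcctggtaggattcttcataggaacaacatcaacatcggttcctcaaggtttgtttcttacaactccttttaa
AT3G53342: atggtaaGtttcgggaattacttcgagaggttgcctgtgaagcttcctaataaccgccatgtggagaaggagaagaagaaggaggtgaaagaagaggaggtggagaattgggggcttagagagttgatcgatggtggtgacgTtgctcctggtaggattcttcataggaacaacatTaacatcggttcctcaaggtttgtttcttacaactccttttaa
AT1G55710: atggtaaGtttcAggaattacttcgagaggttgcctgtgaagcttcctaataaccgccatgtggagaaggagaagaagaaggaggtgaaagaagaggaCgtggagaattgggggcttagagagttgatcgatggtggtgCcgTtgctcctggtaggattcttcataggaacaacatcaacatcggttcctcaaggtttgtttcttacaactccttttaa
AT3G53630: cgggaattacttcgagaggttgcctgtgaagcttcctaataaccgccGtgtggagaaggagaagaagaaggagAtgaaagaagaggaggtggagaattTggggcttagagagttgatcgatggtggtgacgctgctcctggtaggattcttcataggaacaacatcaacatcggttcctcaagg
AT3G53342 differed from AT4G18692 at 3 bases, and its longest identical run was 134 bases. AT1G55710 differed at 5 bases (97.7% identity) and its longest identical run was 85 bases. AT3G53630 differed at 3 of 184 bases, also with a longest run of 85. All 3 runs are longer than the 50 nt reads, so a share of the reads from these genes has more than 1 perfect match.

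The remaining copies were of other kinds. AT5G27247, the member with the highest GMUCT value, had 248.92 RPKM there and 0.37 and 0.79 RPKM in RNA-seq, which is about 1 read in each RNA-seq library and 710 in GMUCT at the approximate depths. Its model is a single reading frame of 147 bases, and a copy covered 98.0% of it at a place on chromosome 5 with no listed gene. AT3G51642 had 60.82 RPKM in GMUCT and 0 in RNA-seq, and 66.0% of its transcript matched a stretch of the genome that overlaps an unlisted noncoding RNA. MT1A (AT1G07600) is a metallothionein, a small cysteine-rich protein that binds metal ions such as copper. It had 99.93 RPKM in GMUCT and was missing from both RNA-seq tables. The related metallothionein genes MT1B (AT5G56795) and MT1C (AT1G07610), which match parts of it at 98.1% and 95.2% identity, were also higher in GMUCT, at 43.05 and 25.52 RPKM, than in RNA-seq, at 2.03 and 1.71 RPKM and at 1.8 and 1.4 RPKM.

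A pattern of another kind was a pair of consecutive identifiers with the same GMUCT value. AT1G58120, an uncharacterized gene with 0.32 and 0.05 RPKM in RNA-seq, had 173.87 RPKM in GMUCT. The next identifier, AT1G58122, had exactly the same GMUCT value and 8.86 and 8.92 RPKM in RNA-seq. AT1G16858 (0.41 and 0.31 RPKM) and AT1G16860 (9.93 and 9.80 RPKM) shared 54.68 RPKM in GMUCT. CRF10 (AT1G68550), an AP2-type transcription factor of the cytokinin response factor group, had 0.59 and 0.26 RPKM in RNA-seq and shared 54.66 RPKM in GMUCT with AT1G68552, which had 12.18 and 14.36 RPKM. AT4G25670 (0.73 and 0.49 RPKM) had 31.43 RPKM in GMUCT, close to the 31.76 RPKM of AT4G25672 (24.94 and 26.28 RPKM). In each pair the member had the low RNA-seq value, which the rule requires, and its neighbour by identifier had more than 8 RPKM.

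Such pairs were rare and had a common form. Among 8337 consecutive identifiers with GMUCT of at least 10 RPKM in the table, 31 (0.372%) had exactly the same GMUCT value. In 27 of the 31 the lower RNA-seq mean was at most 10% of the higher, and in 25 pairs just 1 of the 2 identifiers was in the TAIR10.1 annotation. A match within 2% with the next identifier was found for 4 members (8.33%), against 0.731% of all identifiers, 0.335% of the other low RNA-seq genes and 1.52% of genes with both signals. In the 4 pairs that include a member, the identifiers AT1G58122, AT1G16858, AT1G68552 and AT4G25672 were not in TAIR10.1, so whether the models of a pair overlap was not analysed here. For these 4 members the GMUCT value cannot be told apart from that of the neighbouring identifier.

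Overlap with another annotated gene was counted at 2 lengths. An overlap of any length was found for 13 of the 42 (31.0%), against 27.6% of all annotated identifiers, 16.1% of the other low RNA-seq genes and 31.4% of genes with both signals. All 13 members had an overlap of at least 50 bases, and at that length the other shares were lower, at 20.4%, 12.6% and 23.7%. Overlap of any length on the same strand was found for 2 members (4.76%). The shares of all annotated identifiers, the other low RNA-seq genes and genes with both signals were 4.8%, 2.84% and 5.33%. Overlap on the opposite strand was found for 12 (28.6%), against 23.9%, 13.9% and 27.1% in the same order. The libraries are strand-specific per the labels, but whether the counting used strand is not given in the sources used here, so reads of a gene and of its antisense partner may be mixed. An overlapping or next gene with GMUCT of at least 30 RPKM stood beside 11 members (26.2%). The share was 20.7% of all annotated identifiers, 15.0% of the other low RNA-seq genes and 25.2% of genes with both signals.

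The same-strand overlaps were those of MT1A and AT1G24800. MT1A lies with its whole span of 418 bases in AT1G07590, a TPR-like protein gene with 51.36 and 54.18 RPKM in RNA-seq against 57.53 RPKM in GMUCT. AT1G24800 shares 61 bases with AT1G24793, a UDP-3-O-acyl N-acetylglycosamine deacetylase gene with 0.08 and 0 RPKM in RNA-seq against 19.98 RPKM in GMUCT. The overlapping gene was thus high in RNA-seq for MT1A and near 0 for AT1G24800.

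On the opposite strand, 3 members overlapped another gene over their whole length. AT2G44130, the kelch-repeat gene, had no RNA-seq value and 67.88 RPKM in GMUCT, and all its 1445 bases overlapped AT2G44140, an autophagy-type C54 peptidase gene with 24.35, 24.07 and 23.47 RPKM in RNA-seq 1, RNA-seq 2 and GMUCT. AT1G62240 overlapped AT1G62250 over 928 bases and AT5G66053 overlapped AT5G66052 over 147, and these partners had 10.53 and 11.06 RPKM and 7.06 and 6.87 RPKM in RNA-seq. In all 3 pairs the member was above its partner in GMUCT and below it in RNA-seq. With partners at these levels that order was fixed by the thresholds of the rule. BGAL14 (AT4G38590), named as a beta-galactosidase, the enzyme type that releases galactose from cell wall sugars, was at 0.38 and 0.21 RPKM in RNA-seq and at 135.24 RPKM in GMUCT. It shares 306 bases with KAK (AT4G38600), a HECT ubiquitin ligase that limits trichome branching, with 38.49, 34.53 and 5.63 RPKM in the same order of libraries. BGAL14 is also the longest member, at 3159 nt with 17 introns, and at the approximate depths its GMUCT value stands for 8288 reads.

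In other opposite-strand pairs the GMUCT values were closer or both low in RNA-seq. AT2G18970 shared 459 bases with AT2G18969, annotated as a transcription regulator. AT2G18970 had 0.86, 0.91 and 98.84 RPKM and AT2G18969 had 15.61, 13.27 and 119.77 RPKM in RNA-seq 1, RNA-seq 2 and GMUCT. Both were listed near 100 RPKM in GMUCT, and their reads may be mixed. AT4G18500 and AT4G18501 were both members and share 238 bases. AT4G18500 was missing from RNA-seq 1 and had 0.44 RPKM in RNA-seq 2, with a GMUCT value of 91.75 RPKM. AT4G18501 had 0.19 RPKM in RNA-seq 1, was missing from RNA-seq 2 and had 48.57 RPKM in GMUCT. Each was thus seen in 1 RNA-seq library and not the same one. AT2G25410, a RING/U-box family gene, was at 0.07 RPKM in either RNA-seq library and at 41.21 RPKM in GMUCT. It shared 633 bases with AT2G25409, which had 0.16 RPKM in GMUCT.

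**Figure D5:**
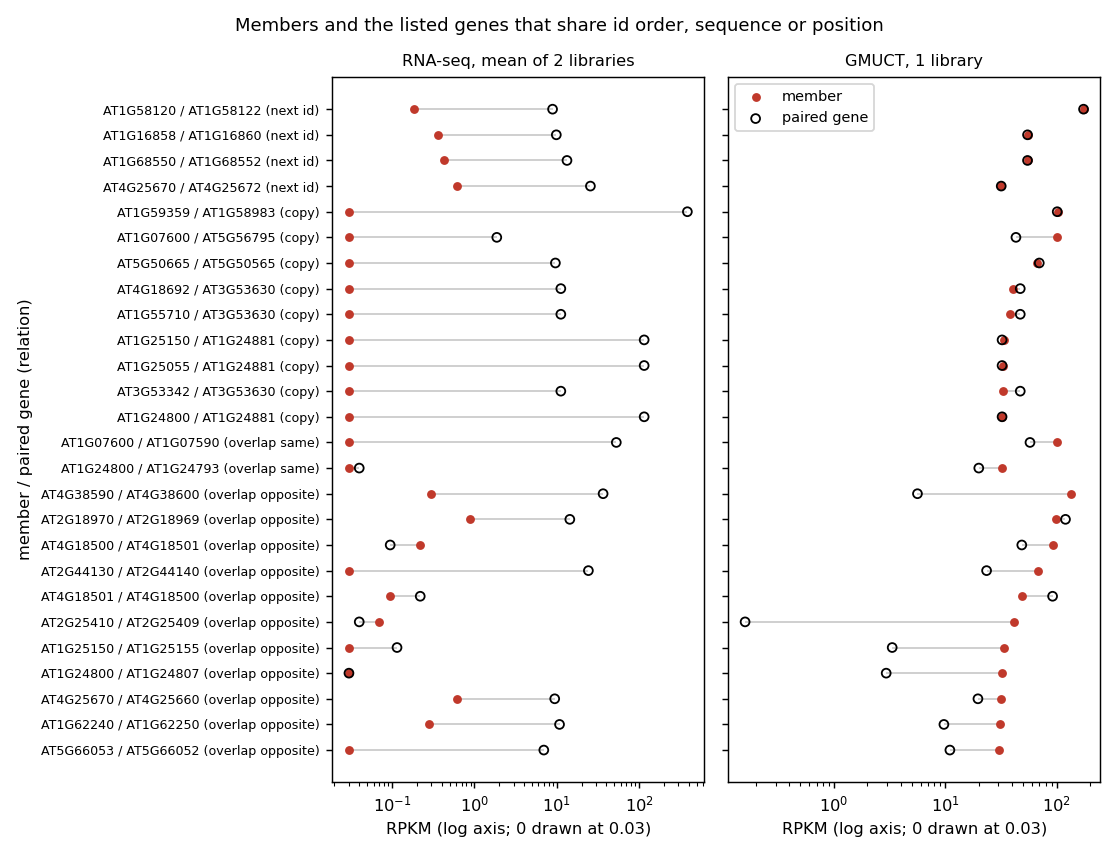
Each line joins a member (red) to a listed gene (open circle) that has the next identifier and the same GMUCT value, a near-identical copy or an overlapping position, with the RNA-seq mean on the left and GMUCT on the right, in RPKM on log axes. The next-identifier and copy pairs are far apart in RNA-seq and most are close in GMUCT. In the overlapping pairs the member is the higher in GMUCT except AT2G18970 and AT4G18501. The rule itself sets every member low in RNA-seq and high in GMUCT.

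Counting the 3 relations together, 24 of the 48 members (50.0%) had a copy, an overlapping gene or a matching next identifier, against 30.3% of all identifiers, 21.1% of the other low RNA-seq genes and 33.7% of genes with both signals. For 18 members (37.5%) such a listed gene reached 1 RPKM in both RNA-seq libraries, against 20.7% of all identifiers, 10.8% of the other low RNA-seq genes and 25.5% of genes with both signals. Of the other 24, 19 had an annotation and none of these relations as far as TAIR10.1 shows them. The remaining 5 had no annotation, so a copy or an overlapping gene could not be searched for them.

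Among those 19, the highest in GMUCT was AT1G07175, at 225.36 RPKM with 0.37 RPKM in RNA-seq 1 and no value in RNA-seq 2. Its product is named alternative NAD(P)H dehydrogenase, and the gene that follows on the same strand 737 bases away, AT1G07180, is alternative NAD(P)H dehydrogenase 1. AT1G07180 had 7.75 and 8.49 RPKM in RNA-seq against 7.17 RPKM in GMUCT, so the high GMUCT value was at the member and not at the gene that follows it. AT3G28600, a P-loop nucleoside triphosphate hydrolase, had 0.24 and 0.22 RPKM in RNA-seq (0.230 ± 0.0141 RPKM, SD, n = 2) against 168.8 RPKM in GMUCT. Its tandem relative AT3G28610, 994 bases away on the same strand, had 0.11, 0 and 3.56 RPKM. SK7 (AT3G21840), one of the SKP1-like proteins that link F-box proteins to the rest of the SCF ubiquitin ligase, was missing from RNA-seq and had 149.9 RPKM in GMUCT. Its tandem relative SKP1-like 9 (AT3G21850), 1096 bases upstream, had 0.22 RPKM in GMUCT. In these 3 places the high GMUCT value was at 1 of the neighbouring genes of like name. The choice of members by a high GMUCT value favours such an order.

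AT5G28491 was the shortest member, with a model of 126 bases that is all reading frame. It had 139.06 RPKM in GMUCT, or about 340 reads at the approximate depth, and was missing from both RNA-seq tables. Its end abuts AT5G28490, a gene of the LIGHT-DEPENDENT SHORT HYPOCOTYLS family on the same strand, with 0.55, 0.43 and 5.98 RPKM in RNA-seq 1, RNA-seq 2 and GMUCT. Its coding sequence in the TAIR10.1 assembly of RefSeq, 5′ to 3′, is shown because the whole signal falls on so few bases, and no base is set in capitals.
AT5G28491: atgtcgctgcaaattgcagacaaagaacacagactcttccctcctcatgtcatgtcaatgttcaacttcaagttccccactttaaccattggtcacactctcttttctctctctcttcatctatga
The frame starts with atg, and at 50 nt a read covers a large part of it.

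The further genes with no copy, overlap or matching neighbour covered several functions. AT5G54460, named wound-responsive protein-like, had 0.31 RPKM in RNA-seq 1, no value in RNA-seq 2 and 101.62 RPKM in GMUCT. AT2G01300, named a subunit of Mediator, the complex that links transcription factors to RNA polymerase II, had 0.08 RPKM in RNA-seq 1, no value in RNA-seq 2 and 95.55 RPKM in GMUCT. AT1G35255, uncharacterized, had 0.42 and 0.51 RPKM in RNA-seq against 86.45 RPKM in GMUCT, and the genes on either side, AT1G35250 and AT1G35260, had 0.27 and 3.12 RPKM in GMUCT. All 3 genes stood above the listed genes next to them in GMUCT: AT2G01290, downstream of AT2G01300, was at 23.57 RPKM, and AT5G54450 and AT5G54470 on the sides of AT5G54460 were at 0.52 and 25.57 RPKM. This order is largely set by the rule, since members were chosen at 30 RPKM or more, a level that 11.7% of identifiers reached. ERD6 (AT1G08930), a sugar transporter first described as a gene induced by dehydration, had 0.75 and 0.67 RPKM in RNA-seq (0.710 ± 0.0566 RPKM, SD, n = 2) against 32.08 RPKM in GMUCT. The related gene before it, AT1G08920, had 2.18, 2.30 and 4.42 RPKM. FUT6 (AT1G14080), a fucosyltransferase of the family that decorates cell wall sugars, had 0.11 and 0.12 RPKM in RNA-seq against 32.44 RPKM in GMUCT, and FUT8 (AT1G14100) had 2.69, 1.79 and 4.28 RPKM.

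The 6 members without a TAIR10.1 entry are named by identifier alone. AT3G43900 had 0.64 and 0.91 RPKM in RNA-seq against 87.2 RPKM in GMUCT. AT5G35526 and AT3G13594 were missing from both RNA-seq tables and had 66.44 and 41.44 RPKM in GMUCT. AT5G52901 had 0.24 RPKM in RNA-seq 1, no value in RNA-seq 2 and a GMUCT value of 61.1 RPKM, and AT5G24250 had 0.05, 0.12 and 53.6 RPKM. The last of the 6 is AT1G16858, the member of the pair with equal GMUCT values given above. Their lengths, introns and neighbours were not analysed here.

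In plants many microRNAs guide ARGONAUTE to cut their target, which leaves an uncapped 3′ piece that GMUCT can read. A site within 2 mismatches of any of 350 annotated mature microRNAs was found in 1 member, BGAL14, for miR414. The share of 2.38% of the annotated members compares with 2.85% of all annotated identifiers, 2.19% of the other low RNA-seq genes and 3.15% of genes with both signals. Cutting at that site was not tested, since the tables hold gene totals and no read positions.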

How the data were processed

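PolyA RNA-seq (2 libraries) and GMUCT (1) were used. The authors deposited identifiers with RPKM values to 2 decimals. Per the submitters' processing notes, cutadapt 1.4.2 and STAR 2.4.0 were used, with the build TAIR10. The sources used here do not give the counting annotation, nor how strand or multiply matching reads were treated. Members and lists were chosen with earlier results of these data known. Since the rule uses both assays, no test was run. Depth was estimated from low RPKM values times TAIR10.1 lengths: 43.5%, 38.2% and 46.4% of them fell at most 0.1 from a whole read. A depth fixed beforehand would give 20% by chance. The depths were picked for a high share, so the 20% is no fair comparison. Some estimated counts were below 1 read for listed members, such as 0.296 for AT4G03580 in RNA-seq 2. The search rule was set after a first search gave larger depths, so the depths are rough and gave no counting intervals. Annotation and sequences came from TAIR10.1 (RefSeq). Its name differs from the authors' build, so no coordinates are printed. Copies were searched with BLAST 2.17.0 and microRNA sites with bwa 0.7.19, in Python 3.11.15. Named genes were the 20 highest in GMUCT, those with a symbol, those at the thresholds, the longest overlaps, adjacent members, and the longest and shortest. Other named genes were chosen after their values were seen. The selection and depth steps were also run on simulated data. The accuracy of the depths in these libraries was not tested.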

Additional observations from a re-analysis of the deposited data

How the results depend on the processing

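Of 86 recomputed values, 76 stayed within the 95% interval of the reported value (for the number of members, within 1.5 times) and 10 moved. The members were chosen by a rule and not drawn as a sample, and the settings largely share the same genes. The count of values that stayed within therefore says little about how stable the results are. The protein-coding share was 100% under every setting, and 26450 of the 26459 annotated identifiers were protein-coding. The intervals are wide: the median transcript length of 1213 nt among identifiers listed in all 3 tables, against 698 nt, counts as within. The number of members was 86 with a GMUCT floor of 20 RPKM, 26 with a floor of 50 RPKM and 20 when only identifiers listed in all 3 tables were used; without either RNA-seq library it was 51 to 53. The median GMUCT value was 32.3 and 89.5 RPKM at those floors. The overlap share was 4.76% on the same strand only. The share with a near-identical copy was 5.88% among identifiers listed in all 3 tables, and 0% by construction once those genes were left out. The share missing from both RNA-seq tables was 0% by construction under the first of these settings and 27.0% under the second. Leaving out members with a matching next identifier, chosen after seeing the data, left 44 members. No paired analysis was possible because the design has no test and 1 GMUCT library. GMUCT has no replicate, RPKM holds no read positions, and members with fewer than 3 estimated RNA-seq reads carry large counting errors.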
